A study of Mus musculus with 4 samples.

Results

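The collagen genes are the 44 genes of the deposited matrices, of 32285 in all, whose symbol consists of Col, a type number, the letter a and a chain number, such as Col1a1. They were chosen by symbol alone, and all 44 had at least 1 unique molecular identifier (UMI, a tag that marks 1 captured RNA molecule) in the cells kept. By the structure of their products they fell into 11 fibrillar genes, 6 type IV genes, 2 multiplexins, 9 fibril-associated collagens with interrupted helices (FACITs), 6 type VI genes, 4 network and anchoring genes, 4 transmembrane genes and 2 others (Col26a1 and Col28a1).

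Collagens are extracellular matrix proteins in which chains wind into a stiff helix. Fibrillar collagens, of which types I and III are the most abundant, form the rope-like fibres of connective tissue and are made mainly by fibroblasts. Type IV collagen forms the sheet of basement membranes, and in the testis it is part of the layer between the seminiferous epithelium and the peritubular myoid cells, which are the contractile cells around the tubules. Multiplexins such as type XV and type XVIII sit at basement membranes, FACITs bind to fibril surfaces, type VI forms beaded filaments at the border of basement membrane and interstitium, and transmembrane collagens stay anchored in the cell membrane.

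The study profiled single cells of mouse testicular organoids (TOs) and of testes from 28-day-old mice, with 2 libraries of each. The TOs had been assembled from testis cells of ICR pups taken at 6 days postpartum, left to aggregate in microwells and embedded in a basement membrane extract. They were then kept at an air-liquid interface with serum replacement, ascorbic acid 2-glucoside, tocopherol acetate, glutathione, FSH and testosterone. The extract was removed partway through the culture, per the study's methods, and the TOs were cultured further without it. The TO cells were dissociated at day 28, which the labels also give as protocol day 21, and the cells of both groups were unsorted. The labels name no mutation in any sample and no strain for the testes. Per the study's methods the TO libraries came from separate batches of organoids, and the study calls the testis libraries biological replicates, although the labels themselves name no animal or culture for any library. The p-values rest on the spread between 2 libraries a group.

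The libraries held 11826 to 14643 barcodes and 74988296 to 119966960 UMIs, of which 8713 to 9866 cells a library were kept, and any pair of libraries shared 30 to 55 barcodes. Stromal cells numbered 2596 and 3162 in the TO libraries and 593 and 415 in the testis libraries. There were 2229 and 1454 TO myoid cells against 589 and 354 from testes, 1512 and 728 TO Sertoli cells against 471 and 269, and 1716 and 1558 TO Leydig cells against 566 and 344. Each of these names rested on markers that were not collagen genes, and none of a type's own 6 or 7 markers was at 0 in all of its sums. Summed myoid markers were lower in TO myoid cells (12130 and 9157 UMIs per 1000000 UMIs) than in testis myoid cells (20330 and 20909), whereas summed stroma markers were higher there (2504 and 3159 against 1220 and 1473). No cluster met the naming rule for matrix fibroblasts. The stromal cluster led by Cxcl14 and Mgp was therefore described beside the 4 types, with 519 and 584 TO cells and 61 and 31 testis cells. A cluster counted among the myoid cells had a higher marker score for matrix fibroblasts (0.537) than for myoid cells (0.416). It held 18 and 33 TO cells, 0.808% and 2.27% of the TO myoid cells, and 0 testis cells. Its fibrillar genes gave 9930.9 and 15812.5 UMIs per 1000000 UMIs, and these cells were part of the TO myoid sums.

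Levels are UMIs per 1000000 UMIs of the same cell type and library (CPM). The libraries count the 3′ ends of transcripts, so CPM was not scaled by transcript length, and ratios between genes are ratios of captured molecules. Germ cells made up 7183 and 7818 of the testis cells but 984 and 706 of the TO cells, and germ cell markers summed to 144 and 64.5 CPM in TO stromal cells against 3258 and 3558 CPM in testis stromal cells. As a background, the mean UMIs of each gene per germ cell of the same library were multiplied by the number of cells of the type and given as a percentage of the observed UMIs, up to 100%. This measure includes transcripts that germ cells make themselves, so a high value does not by itself show that UMIs came from other cells. Changes were tested with edgeR's quasi-likelihood test on the sums of each library, over all genes that passed its count filter, and a gene was called where its adjusted p was below 0.01 and its log2 fold change exceeded 1 in either direction.

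In stroma, 4 collagen genes were called higher in TOs and 3 lower, of 32 tested, where 1.98% of all tested genes were called higher and 16.3% lower. In myoid cells 4 were higher and 4 lower of 31 tested, against 4.38% and 19.4% of all genes. In Sertoli cells 5 were higher and 5 lower of 24 tested, against 8.76% and 21% of all genes. In Leydig cells 3 were higher and 4 lower of 29 tested, against 2.2% and 12.3%. As shares, 12.5% of the tested collagen genes were higher in stroma and 12.9% in myoid cells. The median log2 fold change of the tested collagen genes was 0.36 in stroma, where that of all genes was 0.06, and 0.24, 0.16 and 0.27 in myoid, Sertoli and Leydig cells, where those of all genes were 0.08, 0.01 and -0.03. Of the 44 genes, 19 were tested in all 4 types, 19 in 1 to 3 types and 6 in none (Col2a1, Col9a1, Col9a2, Col10a1, Col11a2 and Col12a1, most of them chains of cartilage collagens), and 22 were called in no type. After subtraction of the whole germ cell profile from the sums, edgeR called 0 collagen genes in each of the 4 types (10, 10, 6 and 6 at an unadjusted p below 0.05) and 0 of all genes. A germ cell held 7272 and 8713 UMIs in TOs and 4751 and 4855 in testes. A stromal cell held 4083 and 7058 UMIs against 2359 and 3069, less than the profile subtracted for it. These 0 calls therefore cannot show how much RNA came from other cells. After subtraction from the collagen genes alone edgeR called 7, 7, 5 and 5 in stroma, myoid, Sertoli and Leydig cells. Called genes differed in their background: the median background over libraries exceeded 50% for 2 of the 7 called genes in stroma, 3 of 8 in myoid cells and 3 of 7 in Leydig cells, but for 7 of 10 in Sertoli cells.

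**Figure D1:**
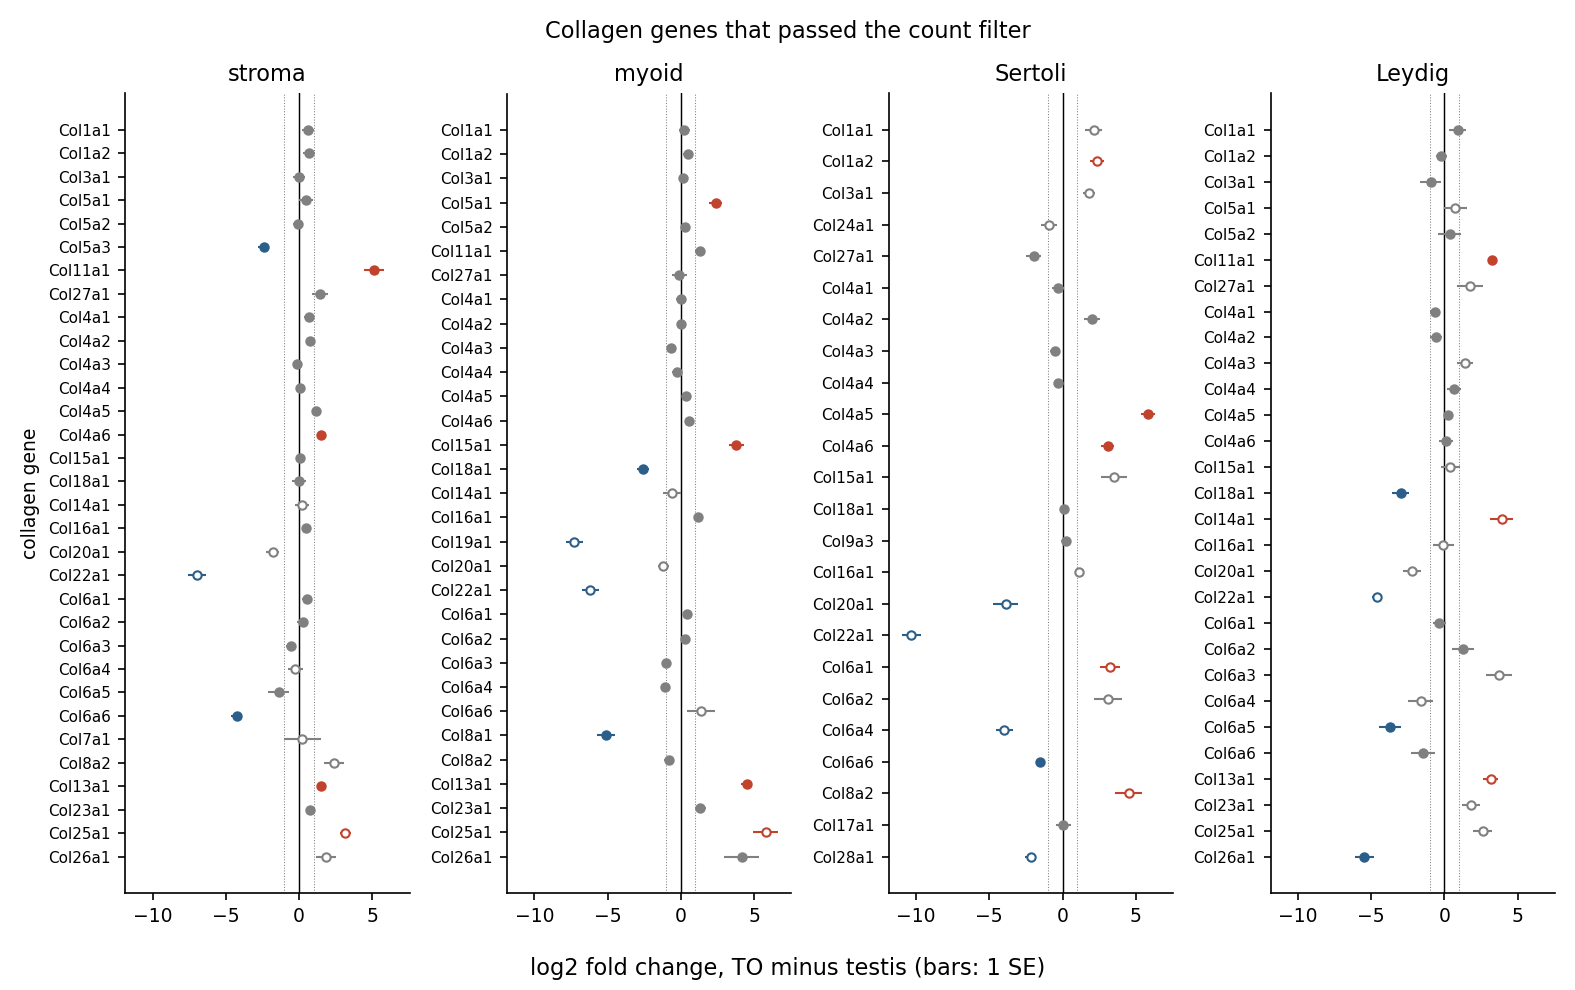
Log2 fold change, TO minus testis, of the collagen genes that passed the count filter in stroma, myoid, Sertoli and Leydig cells, from edgeR with 2 libraries a group. Points are estimates and bars 1 SE, red marks genes called higher in TOs, blue genes called lower and grey genes not called, open points have a median background above 50%, and dotted lines mark the fold threshold. In myoid cells Col13a1 lies at 4.49 and Col8a1 at -5.11, whereas Col1a1, Col3a1, Col4a1 and Col4a2 lie close to 0.

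The summed level of all collagen transcripts overlapped between TOs and testes in stroma and in myoid cells. All 44 genes together summed to 10432 and 12913 CPM in TO stroma and to 11231 and 7539 CPM in testis stroma, so that the groups overlapped (1.24-fold, exact permutation test over libraries, two-sided p = 0.667). Testis replicate 1 exceeded TO replicate 1. Myoid cells held 9089 and 12288 CPM in TOs and 10445 and 10192 CPM in testes (1.04-fold, exact permutation p = 1.0). With 2 libraries against 2, the smallest p this test can give is 0.333. The epithelial and steroidogenic types held far less: 379 and 384 CPM in TO Sertoli cells against 373 and 296 CPM, and 906 and 918 CPM in TO Leydig cells against 1825 and 545 CPM. Per cell, TO stromal cells carried 42.6 and 91.1 collagen UMIs and testis stromal cells 26.5 and 23.1, but TO stromal cells were also sequenced deeper, at 4083 and 7058 UMIs a cell against 2359 and 3069.

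**Figure D2:**
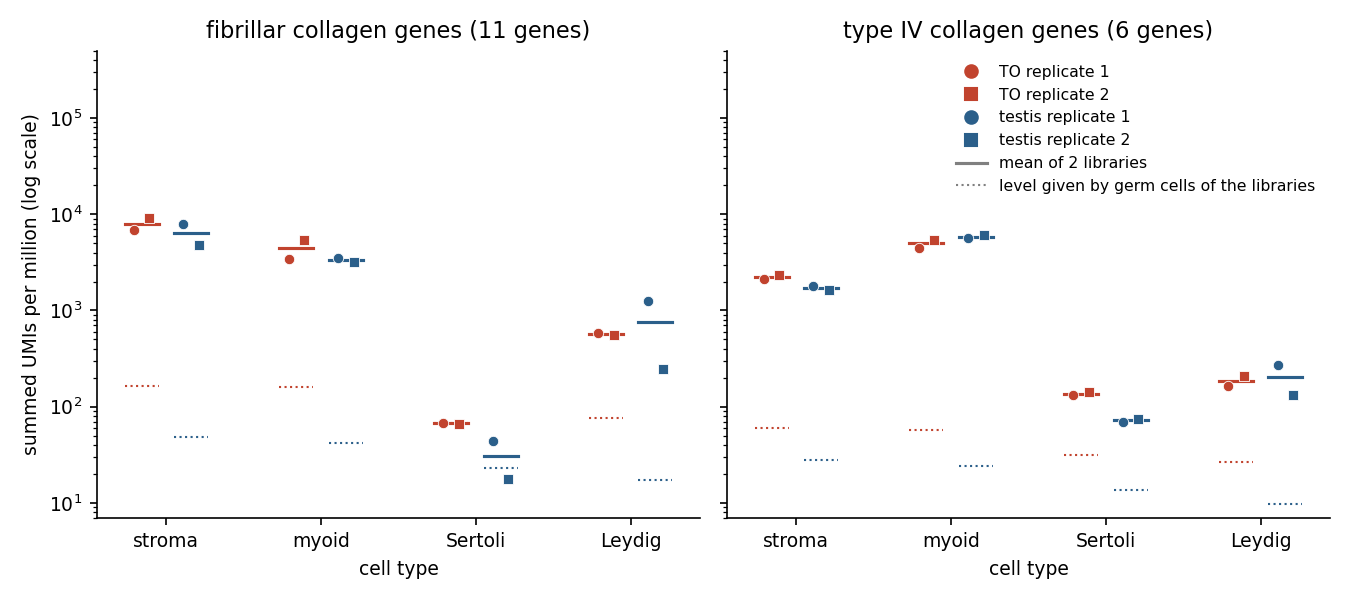
Summed CPM (log scale) of the 11 fibrillar genes (left) and the 6 type IV genes (right) by cell type. Points are libraries, solid lines means of 2 libraries, and dotted lines the mean level that the germ cells of the same libraries would give. Fibrillar genes stand highest in stroma (4835 to 9071 CPM), type IV genes in myoid cells (4491 to 6019 CPM), and Sertoli fibrillar values lie at the germ cell level in most libraries.

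The fibrillar genes made up 64.1% to 70.2% of collagen UMIs in stroma and were led by the type I and type III chains. Fibrillar genes summed to 6847 and 9071 CPM in TO stroma and to 7847 and 4835 CPM in testis stroma, with overlap between the groups. Col1a1, the α1 chain of type I collagen, stood at 1945 and 2704 CPM in TO stroma and at 2077 and 1166 CPM in testis stroma (log2 fold change 0.61 ± 0.43 SE, edgeR adjusted p = 0.328). Its partner chain Col1a2 stood at 2607 and 3345 CPM in TO stroma and at 2300 and 1636 CPM in testis stroma (0.69 ± 0.39, edgeR adjusted p = 0.221). For neither chain did the test separate the groups. Col3a1, which forms type III fibrils, had 1960 and 2543 CPM in TO stroma and 2993 and 1772 CPM in testis stroma (0.01 ± 0.42, edgeR adjusted p = 0.994). The ratio of Col3a1 to Col1a1 UMIs was nonetheless lower in both TO libraries (1.01 and 0.941) than in both testis libraries (1.44 and 1.52), a difference of log2 means of -0.60 that reached the smallest p the exact permutation test can give (0.333). The ratio of Col1a2 to Col1a1 overlapped between the groups, at 1.34 and 1.24 in TO stroma and 1.11 and 1.40 in testis stroma.

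Col3a1 lies on mouse chromosome 1 (GRCm38, chr1:45311538-45349706, plus strand). The 150 bases before its start are shown because Col3a1 was the most abundant member in testis stroma and the only sequence printed here with a match to the motifs searched. These were the CCAAT box, the GC box core GGGCGG and the TATA box core TATAAA, each on both strands, and capitals mark the match, to TATAAA on the printed strand.

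Col3a1 promoter, RefSeq GRCm38.p6, chr1:45311388-45311537, plus strand: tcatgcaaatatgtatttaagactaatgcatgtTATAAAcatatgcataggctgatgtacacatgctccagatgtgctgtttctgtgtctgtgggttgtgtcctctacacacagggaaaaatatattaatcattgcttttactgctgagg

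A promoter entry of 300 bases was found for 35 of the 44 genes. TATAAA occurred in 5 of these 35 windows (14.3%) and in 13.6% of all 32851 promoter windows, CCAAT in 12 (34.3%) against 37.4%, and GGGCGG in 22 (62.9%) against 35.7%. No motif contains another, and a match is a description of the letters only.

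Minor fibrillar chains moved in TO stroma. Col11a1, a chain that forms mixed fibrils with types II and V, stood at 27.7 and 21.8 CPM in TO stroma and at 1.43 and 0 CPM in testis stroma (log2 fold change 5.11 ± 0.69 SE, edgeR adjusted p = 0.00214), without overlap. Col5a3, a type V chain, was lower, at 5.0 and 6.9 CPM in TO stroma against 42.2 and 26.7 CPM (-2.43 ± 0.39, edgeR adjusted p = 0.00423). Both lie below the 50 CPM at which genes were named by rule and were singled out after their values were seen. Col5a1, which with Col5a2 sets fibril diameter, had 163 and 280 CPM in TO stroma and 230 and 107 CPM in testis stroma (0.48 ± 0.46, edgeR adjusted p = 0.456), and the groups overlapped.

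In myoid cells the fibrillar genes summed to 3465 and 5398 CPM in TOs and to 3547 and 3210 CPM in testes, and the groups overlapped. Col1a1 had 822 and 1635 CPM in TO myoid cells and 1091 and 993 CPM in testis myoid cells (log2 fold change 0.24 ± 0.36 SE, edgeR adjusted p = 0.639). Col1a2 had 1631 and 2350 CPM against 1471 and 1339 CPM (0.50 ± 0.31, edgeR adjusted p = 0.243). Neither passed the test, although both Col1a2 values of the TOs lay above those of the testes. Col3a1 had 815 and 1030 CPM against 857 and 771 CPM (0.17 ± 0.27, edgeR adjusted p = 0.648). Col5a1 was the fibrillar gene called in myoid cells, with 102 and 255 CPM in TOs and 39.0 and 29.3 CPM in testes (2.38 ± 0.44, edgeR adjusted p = 0.00235), and the groups did not overlap. The call did not hold without testis replicate 1 (adjusted p = 0.0207) or without testis replicate 2 (adjusted p = 0.0308), with log2 fold changes of 2.59 and 2.13. The TO against testis difference of Col5a1 was larger in myoid cells than in stroma by 1.68 ± 0.23 on the log2 scale (edgeR interaction test, adjusted p = 1.95e-06).

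Leydig cells, which make testosterone, carried Col3a1 as their main collagen transcript, and it set the testis libraries apart from each other rather than from the TOs. Col3a1 stood at 336 and 288 CPM in TO Leydig cells, at 1003 CPM in testis replicate 1 and at 142 CPM in testis replicate 2 (log2 fold change -0.92 ± 0.72 SE, edgeR adjusted p = 0.404). Without testis replicate 1 the difference was 1.09, and without testis replicate 2 it was -1.72. Col1a2 had 125 and 140 CPM in TO Leydig cells against 209 and 87.5 CPM (-0.22 ± 0.38, edgeR adjusted p = 0.716). Col1a1 was low, at 22.5 and 21.7 CPM against 18.4 and 4.08 CPM (0.91 ± 0.56, edgeR adjusted p = 0.288), with a background of 62.9% and 90.2% in the TOs. Of the 7 collagen genes called in Leydig cells, Col11a1 had the highest level in TOs, at 83.2 and 82.9 CPM in TOs and 6.42 and 9.63 CPM in testes (3.29 ± 0.30, edgeR adjusted p = 0.00049). Its background was at most 2.62% in any library, and within the cluster led by Cyp17a1 and Ass1, which held 1384 and 1218 TO cells and 562 and 340 testis cells, it stood at 90.0 and 94.4 CPM against 6.45 and 9.67 CPM.

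Sertoli cells, the epithelial cells that support germ cells, held fibrillar transcripts at the germ cell level. Their fibrillar genes summed to 68.2 and 65.8 CPM in TOs and to 44.2 and 17.6 CPM in testes, with a background of 100%, 100%, 65.2% and 100%. Col1a2 was called higher, at 21.3 and 20.8 CPM in TO Sertoli cells against 6.20 and 1.41 CPM (log2 fold change 2.36 ± 0.45 SE, edgeR adjusted p = 0.00534), and its background was at least 68.4% in every library. The call was lost without TO replicate 1 (adjusted p = 0.0141) or TO replicate 2 (adjusted p = 0.0123). Col1a1 had 13.1 and 16.5 CPM against 5.42 and 0.704 CPM (2.12 ± 0.56, edgeR adjusted p = 0.0199). Col3a1 had 23.1 and 21.8 CPM against 9.30 and 2.81 CPM (1.82 ± 0.41, edgeR adjusted p = 0.0103). Fibrillar genes summed to 105 and 113 CPM in TO germ cells and to 33.2 and 19.5 CPM in testis germ cells, so that the germ cells moved the same way.

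Myoid cells held the largest part of type IV transcripts in both testis libraries and in TO replicate 1, and a part close to that of stroma in TO replicate 2. They held 55.8% and 43.2% of each TO library's type IV UMIs in all kept cells and 60.7% and 63.4% of each testis library's, although they made up 3.6% and 2.63% of the UMIs of the testis libraries and 15.4% and 13.0% of those of the TO libraries. Stroma held 27.6% and 43.6% of the type IV UMIs of the TO libraries and 16.5% and 17.6% of those of the testis libraries. Type IV genes summed to 4491 and 5446 CPM in TO myoid cells and to 5720 and 6019 CPM in testis myoid cells, lower in both TO libraries, by 0.847-fold (exact permutation test, p = 0.333, the smallest it can give). Col4a4 led them in every myoid library, with 2286 and 2550 CPM in TOs and 2891 and 2926 CPM in testes (log2 fold change -0.27 ± 0.30 SE, edgeR adjusted p = 0.507). Col4a3, its partner in the α3α4α5 network, had 823 and 1070 CPM against 1208 and 1743 CPM (-0.65 ± 0.31, edgeR adjusted p = 0.137). Both were lower in each TO library than in each testis library without passing the test. In the myoid cluster led by Sct and Sh3bgr, Col4a4 had 2102 and 2289 CPM in TOs against 3132 and 3051 CPM. In that led by Prkcb and Tnnt2 it had 2723 and 3219 CPM against 4361 and 4240 CPM. In the cluster led by Mustn1 and Rergl it went the other way, at 1424 and 1444 CPM against 42.4 and 0 CPM. Col4a1, a chain of the basement membrane network found in nearly all tissues, had 489 and 794 CPM in TO myoid cells and 777 and 516 CPM in testis myoid cells (-0.02 ± 0.33, edgeR adjusted p = 0.975). Col4a2, which assembles with Col4a1, had 419 and 525 CPM against 539 and 408 CPM (-0.01 ± 0.27, edgeR adjusted p = 0.979).

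The type IV genes lie in head-to-head pairs that share a promoter region, and in myoid cells the ratio of the chains overlapped between TOs and testes for 2 of the 3 pairs. Col4a2 over Col4a1 UMIs in myoid cells gave 0.858 and 0.661 in TOs and 0.693 and 0.791 in testes, with overlap. Col4a4 over Col4a3 gave 2.78 and 2.38 in TO myoid cells and 2.39 and 1.68 in testis myoid cells, also with overlap. Col4a5 over Col4a6 was lower in both TO libraries, at 2.30 and 2.16 against 2.81 and 2.47 (exact permutation p = 0.333). The same pair did not overlap in stroma, at 1.97 and 1.94 in TOs against 2.33 and 2.60 (exact permutation p = 0.333), nor did Col4a4 over Col4a3 in Sertoli cells, at 2.55 and 1.98 against 1.91 and 1.87 (exact permutation p = 0.333). By annotated start sites Col4a4 (minus strand) and Col4a3 (plus strand) are separated by 71 bases on chromosome 1, Col4a6 and Col4a5 by 1308 bases on chromosome X, and the annotated starts of Col4a1 and Col4a2 overlap on chromosome 8. The whole interval between Col4a4 and Col4a3 is shown because these were the main type IV genes of myoid cells. It had no match to the 3 motifs and a GC content of 69.0%.

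Col4a4 to Col4a3 interval, RefSeq GRCm38.p6, chr1:82586850-82586920, minus strand (the strand of Col4a4): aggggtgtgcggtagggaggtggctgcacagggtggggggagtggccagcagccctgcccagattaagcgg

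In stroma the type IV genes summed to 2104 and 2310 CPM in TOs and to 1793 and 1615 CPM in testes, higher in both TO libraries (1.29-fold, exact permutation p = 0.333). Summed myoid markers were also higher in TO stroma, at 1836 and 669 CPM against 369 and 262 CPM with all 7 detected in every library, whereas the 7 stroma markers summed to 8144 and 6864 CPM against 10245 and 22069 CPM. The part of these shifts in the type IV level was not tested. Col4a6 was the type IV gene called, with 142 and 154 CPM in TO stroma and 65.1 and 47.1 CPM in testis stroma (log2 fold change 1.49 ± 0.26 SE, edgeR adjusted p = 0.00541). It was not called without testis replicate 2 (1.23, adjusted p = 0.0161). Its partner Col4a5 had 281 and 300 CPM against 152 and 122 CPM (1.17 ± 0.24, edgeR adjusted p = 0.0115), just short of the threshold. Neither gene's groups overlapped. Col4a1 had 397 and 571 CPM in TO stroma and 392 and 268 CPM in testis stroma (0.65 ± 0.34, edgeR adjusted p = 0.193). Col4a2 had 410 and 472 CPM against 323 and 234 CPM (0.75 ± 0.29, edgeR adjusted p = 0.0922). These broad basement membrane chains lay higher in every TO library than in every testis library but did not pass the test.

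Sertoli cells gave 132 and 141 CPM of type IV transcripts in TOs and 69.7 and 74.6 CPM in testes (1.89-fold, exact permutation p = 0.333). Some marker lists named for other cell types moved the same way in Sertoli cells. The 6 mesothelial or epithelial markers gave 262 and 309 CPM in TOs against 39.9 and 66.8 CPM (Upk3b, Msln and Krt19 at 0 throughout). The 7 stroma markers gave 115 and 67.7 CPM against 32.1 and 19.7 CPM. Germ cell, T cell and erythroid markers were lower in TOs, and myoid and macrophage markers overlapped. The part of these shifts in the type IV and fibrillar levels was not tested. Col4a5 carried most of the difference, at 49.9 and 59.0 CPM in TO Sertoli cells and at 1.55 and 0 CPM in testis Sertoli cells (log2 fold change 5.83 ± 0.50 SE, edgeR adjusted p = 0.000206). Its background was 19.1% and 11.8% in the TOs. Col4a6 rose as well, from 1.94 and 2.81 CPM in testes to 15.6 and 21.4 CPM in TOs (3.09 ± 0.43, edgeR adjusted p = 0.00143). The TO against testis difference of Col4a5 exceeded that in stroma by 4.45 ± 0.52 on the log2 scale (edgeR interaction test, adjusted p = 0.00108). Col4a1 had 12.4 and 11.1 CPM against 20.9 and 8.44 CPM (-0.32 ± 0.39, edgeR adjusted p = 0.534). Col4a2 had 15.9 and 13.8 CPM against 5.81 and 0.704 CPM (2.04 ± 0.55, edgeR adjusted p = 0.0208). In Leydig cells the type IV genes gave 164 and 210 CPM in TOs and 271 and 132 CPM in testes, with Col4a1 at 46.8 and 56.7 CPM against 105 and 47.0 CPM (-0.61 ± 0.36, edgeR adjusted p = 0.263) and Col4a2 at 33.1 and 36.0 CPM against 72.6 and 26.3 CPM (-0.58 ± 0.41, edgeR adjusted p = 0.36).

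The Sertoli counts depended on which clusters and libraries were kept. Of the Sertoli cells, 303 and 187 in the TOs but 0 and 1 in the testes lay in a cluster led by Wfdc18 and Myoz2, and 105 lay in a cluster found in testis replicate 2 alone. Without these and a cluster of low UMI counts, edgeR called 0 of the collagen genes and 0 of all genes, with 10 collagen genes at an unadjusted p below 0.05, and DESeq2 called 4 collagen genes. Col4a5 then had a log2 fold change of 4.86 (edgeR adjusted p = 0.0164). The count of 10 called genes fell when either TO library was left out, and so did the count over all genes. Beside Col1a2, Col4a5 and Col4a6, the called genes were Col8a2 and Col6a1, both higher, and Col20a1, Col28a1, Col6a6, Col6a4 and Col22a1, all lower, named here because they complete the count, after their values were seen. Germ cell markers summed to 72.8 and 40.3 CPM in TO Sertoli cells and to 2015 and 6582 CPM in testis Sertoli cells, and the part of this difference in the lower calls was not tested.

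**Figure D3:**
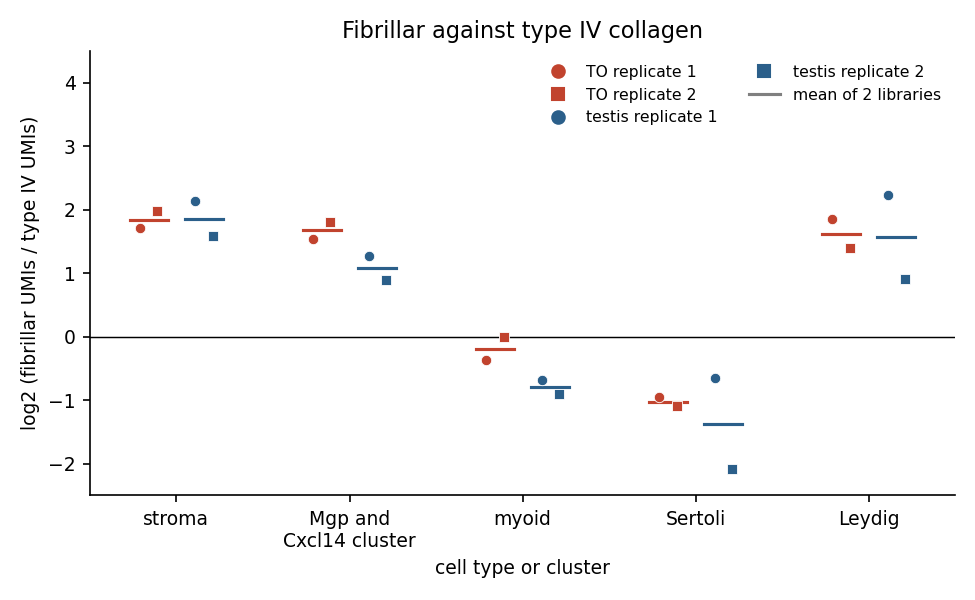
Log2 ratio of fibrillar to type IV UMIs in each library, for 4 cell types and the Mgp and Cxcl14 cluster. Points are libraries and lines means of 2 libraries. The TO points lie above the testis points in myoid cells and in the Mgp and Cxcl14 cluster and overlap them in stroma, Sertoli and Leydig cells.

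The balance of fibrillar to type IV transcripts answers whether both kinds moved by the same amount. TO myoid cells had ratios of 0.771 and 0.991 against 0.620 and 0.533 for testis myoid cells, so that the ratio was higher in both TO libraries, by 0.60 on the log2 scale (exact permutation test, p = 0.333, the smallest it can give). The stromal ratios were 3.26 and 3.93 against 4.38 and 2.99 in testes, -0.02 apart on the log2 scale and with overlap (exact permutation p = 1.0). The Leydig ratios of 3.59 and 2.63 against 4.66 and 1.88 overlapped, as did the Sertoli ratios of 0.516 and 0.467 against 0.633 and 0.236. The Mgp and Cxcl14 cluster had ratios of 2.91 and 3.50 in TOs against 2.40 and 1.86 in testes, 0.59 higher on the log2 scale and without overlap. With the multiplexins counted beside type IV, the Sertoli ratios no longer overlapped, at 0.270 and 0.255 in TOs against 0.200 and 0.119, 0.77 higher on the log2 scale (exact permutation p = 0.333). On that count the difference was 0.57 in myoid cells and 0.52 in the Mgp and Cxcl14 cluster, again without overlap, and the stromal and Leydig ratios overlapped.

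The multiplexins moved in opposite directions in myoid cells. Col15a1, whose product lies on the outer face of basement membranes, stood at 133 and 182 CPM in TO myoid cells and at 17.9 and 3.25 CPM in testis myoid cells (log2 fold change 3.80 ± 0.48 SE, edgeR adjusted p = 0.000268). The background was 1.87% and 1.81% in the TOs and 49.2% and 100% in the testes. In stroma the same gene had 238 and 247 CPM in TOs and 278 and 216 CPM in testes (0.06 ± 0.25, edgeR adjusted p = 0.87), and the difference between myoid cells and stroma was itself significant (3.60 ± 0.28, edgeR interaction test, adjusted p = 3.96e-11). The 2 large myoid clusters showed the same values, with 120 and 192 CPM against 18.2 and 3.69 CPM in the cluster led by Sct and Sh3bgr and 126 and 173 CPM against 26.2 and 4.54 CPM in that led by Prkcb and Tnnt2. TO myoid cells also carried more stroma marker UMIs, as given above, and the part of these in the Col15a1 level was not tested.

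Col18a1, the source of endostatin, was lower in TO myoid cells, at 8.57 and 5.33 CPM against 53.8 and 28.4 CPM (log2 fold change -2.59 ± 0.39 SE, edgeR adjusted p = 0.000697), and lower in TO Leydig cells, at 4.90 and 2.35 CPM against 40.2 and 14.9 CPM (-2.99 ± 0.56, edgeR adjusted p = 0.00705). Sertoli cells were its main source among the 4 types, with 117 and 115 CPM in TOs and 151 and 73.2 CPM in testes (0.10 ± 0.29, edgeR adjusted p = 0.794), a background of at most 6.75%, and overlap between the groups. It was thus the collagen gene with the most UMIs in Sertoli cells of both groups.

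The 150 bases before the RefSeq starts of Col15a1 and Col13a1 are shown because these genes had the largest fold gains in TO myoid cells among called members above 50 CPM. The former had a GC content of 59.3% and the latter of 68.7%, and neither stretch matched any of the 3 motifs. For Col15a1 the annotation used for gene positions puts the start further downstream, at base 47208161 of chromosome 4.
Col15a1 promoter, RefSeq GRCm38.p6, chr4:47207862-47208011, plus strand: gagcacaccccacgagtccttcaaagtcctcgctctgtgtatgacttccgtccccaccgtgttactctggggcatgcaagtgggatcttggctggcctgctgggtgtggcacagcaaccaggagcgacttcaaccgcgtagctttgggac
Col13a1 promoter, RefSeq GRCm38.p6, chr10:61979109-61979258, minus strand: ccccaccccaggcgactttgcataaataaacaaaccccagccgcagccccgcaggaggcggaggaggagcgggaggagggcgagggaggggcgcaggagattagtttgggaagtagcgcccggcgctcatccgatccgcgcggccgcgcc

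Of the 4 transmembrane collagens, 3 were tested in stroma and in myoid cells, and Col13a1 and Col25a1 were called higher in both types. Col23a1 did not pass in either (log2 fold change 0.74 ± 0.30 SE, edgeR adjusted p = 0.106 in stroma, and 1.34 ± 0.35, edgeR adjusted p = 0.0139 in myoid cells), and Col17a1 fell below the count filter. The 4 genes summed to 198 and 227 CPM in TO stroma against 79.4 and 95 CPM, and to 151 and 208 CPM in TO myoid cells against 22.3 and 26.0 CPM, without overlap in either type (exact permutation p = 0.333, the smallest it can give). Col13a1, which sits at cell-matrix adhesions and neuromuscular junctions, stood at 105 and 87.7 CPM in TO stroma and at 33.6 and 37.7 CPM in testis stroma (log2 fold change 1.53 ± 0.21 SE, edgeR adjusted p = 0.00219). In myoid cells it stood at 98.1 and 122 CPM against 6.80 and 2.44 CPM (4.49 ± 0.38, edgeR adjusted p = 2.54e-05). No TO library overlapped a testis library in either type. The gain in myoid cells exceeded that in stroma by 2.82 ± 0.40 (edgeR interaction test, adjusted p = 4.04e-06). Col13a1 was also called in Leydig cells, at 10.3 and 9.03 CPM against 1.12 and 0.875 CPM (3.19 ± 0.52, edgeR adjusted p = 0.00392), with a background of 100% in TO replicate 1. Col25a1, a transmembrane collagen of neurons and muscle, had 40.8 and 59.3 CPM in TO stroma and 7.15 and 4.71 CPM in testis stroma (3.17 ± 0.40, edgeR adjusted p = 0.00164), with a background of 81.2%, 24.0%, 100% and 100%. After subtraction of this background from the collagen genes, which by construction leaves 0 UMIs in both testis sums, the fitted log2 fold change was 10.91 ± 2.80 (edgeR adjusted p = 0.0349), a size that depends on the prior count. In myoid cells Col25a1 was called as well, at 14.2 and 27.2 CPM against 0.618 and 0 CPM (5.80 ± 0.87, edgeR adjusted p = 0.000704). Germ cells held it at 18.6 and 11.5 CPM in TOs and at 7.09 and 13.8 CPM in testes. The myoid value of TO replicate 1 thus lay below the germ cell level, and the part of germ cell RNA in this call was not tested.

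**Figure D4:**
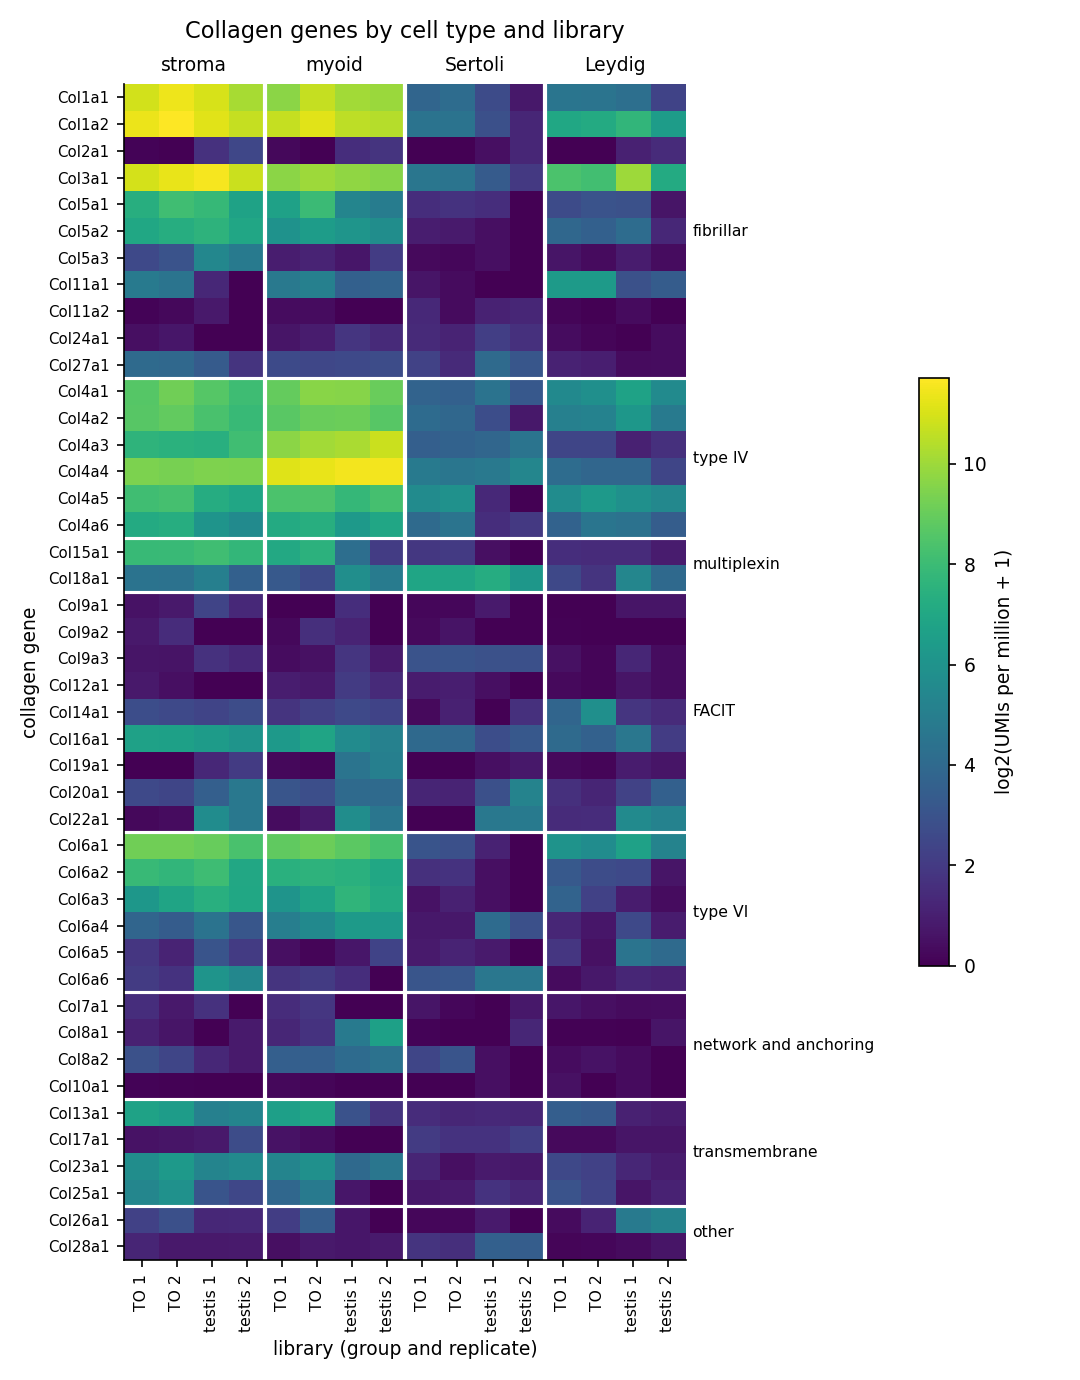
Log2(CPM + 1) of all 44 collagen genes, grouped by structural class, in the 4 cell types, with 1 column per library. The type I, III and IV chains form the bright rows of stroma and myoid cells in both groups, and Col22a1 is brighter in the testis columns of every type, at 23.6 to 53.2 CPM against 0 to 1.82 CPM in TOs.

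Among the FACITs, Col22a1 was the only collagen gene called in all 4 types, lower in TOs in each. It stood at 0.189 and 0.314 CPM in TO stroma and at 50.8 and 25.1 CPM in testis stroma (log2 fold change -6.98 ± 0.60 SE, edgeR adjusted p = 0.00043). In Sertoli cells it had 0 UMIs in both TO libraries and 25.2 and 26.7 CPM in the testes, at least 185-fold lower against a floor of 3 UMIs over the TO sums (edgeR adjusted p = 0.000139). Germ cells themselves held Col22a1 at 19.7 and 17.6 CPM in TOs and at 168 and 179 CPM in testes, and its background was 100% in every somatic sum that held it. Col20a1, another FACIT, likewise had 17.6 and 171 CPM in testis germ cells and 3.07 and 3.90 CPM in TO germ cells. Col14a1, which binds the surface of type I fibrils, was called higher in TO Leydig cells, at 12.9 and 55.7 CPM against 2.51 and 1.75 CPM (3.93 ± 0.79, edgeR adjusted p = 0.00964), where the TO libraries themselves differed severalfold. In stroma the same gene did not pass, at 5.76 and 4.93 CPM against 4.29 and 5.50 CPM. Col19a1, a minor FACIT, was lower in TO myoid cells, at 0.199 and 0.107 CPM against 21.6 and 32.5 CPM (-7.26 ± 0.59, edgeR adjusted p = 1.96e-05), with a background of 80.4% and 62.6% in the testes. The FACIT genes as a group are the class in which the germ cell level stood highest relative to the somatic types, at 100% of the summed value in the testis libraries of all 4 types.

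The type VI chains overlapped between the groups as a class, at 894 and 913 CPM in TO stroma against 1037 and 635 CPM. Col6a6 was lower in TO stroma, at 3.11 and 2.24 CPM against 65.8 and 41.6 CPM (log2 fold change -4.27 ± 0.37 SE, edgeR adjusted p = 0.000464), with a background of 1.71% and 0.701% in the testes. In Sertoli cells Col6a6 was lower too, at 7.43 and 8.12 CPM against 24.0 and 23.9 CPM (-1.56 ± 0.26, edgeR adjusted p = 0.00292), and the 2 differences were themselves unequal (edgeR interaction test, 2.43 ± 0.42, adjusted p = 0.00683). The chains of the classical type VI molecule, Col6a1, Col6a2 and Col6a3, were called in neither stroma nor myoid cells. Col6a1 UMIs over Col6a3 UMIs nevertheless gave 7.74 and 5.12 in TO stroma and 3.04 and 2.65 in testis stroma, and 7.16 and 4.99 in TO myoid cells and 2.11 and 2.21 in testis myoid cells. Both differences lacked overlap (exact permutation p = 0.333, the smallest it can give). Col6a3 itself had 64.8 and 110 CPM in TO myoid cells against 203 and 144 CPM (-1.0 ± 0.31, edgeR adjusted p = 0.0295).

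Col8a1, a network-forming chain of vessel walls, was lower in TO myoid cells, at 1.40 and 2.24 CPM against 26.6 and 101 CPM (log2 fold change -5.11 ± 0.62 SE, edgeR adjusted p = 0.000209), although the testis libraries differed by a wide margin. Col26a1, a secreted collagen of testis and ovary, had 0.272 and 1.23 CPM in TO Leydig cells and 26.3 and 36.8 CPM in testis Leydig cells (-5.45 ± 0.64, edgeR adjusted p = 0.00115). Col6a5 was lower there as well, at 2.56 and 0.427 CPM against 22.1 and 15.5 CPM (-3.72 ± 0.74, edgeR adjusted p = 0.00912). The Leydig count of 7 called genes fell when either testis library was left out, and so did the count over all genes. Col26a1 and Col6a5 lie below 50 CPM and were named after their values were seen.

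Clusters within stroma and myoid cells spanned a wide range of collagen levels. In the stromal cluster led by Pi16 and Clec3b, fibrillar genes gave 12377 and 15769 CPM in TOs and 8696 and 4453 CPM in testes, and in the cluster led by Spon1 and Tspan8 they gave 3172 and 4471 CPM against 5779 and 2744 CPM. The Mgp and Cxcl14 cluster gave 8026 and 11356 CPM in TOs and 7134 and 4700 CPM in testes. In it edgeR called 0 of 24 tested collagen genes (0.679% of all genes were higher and 8.11% lower), with 9 at an unadjusted p below 0.05, and DESeq2 also called 0. Col1a1 had 2494 and 3777 CPM there against 2086 and 1262 CPM (log2 fold change 1.05 ± 0.45 SE, edgeR adjusted p = 0.161). Col1a2 had 3221 and 4400 CPM against 2249 and 1747 CPM (1.09 ± 0.43, edgeR adjusted p = 0.13). Col3a1 gave 0.31 ± 0.42 (edgeR adjusted p = 0.689), Col4a1 0.45 ± 0.42 (edgeR adjusted p = 0.542) and Col4a2 0.70 ± 0.34 (edgeR adjusted p = 0.21). The test of this cluster rested on 61 and 31 testis cells.

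**Figure D5:**
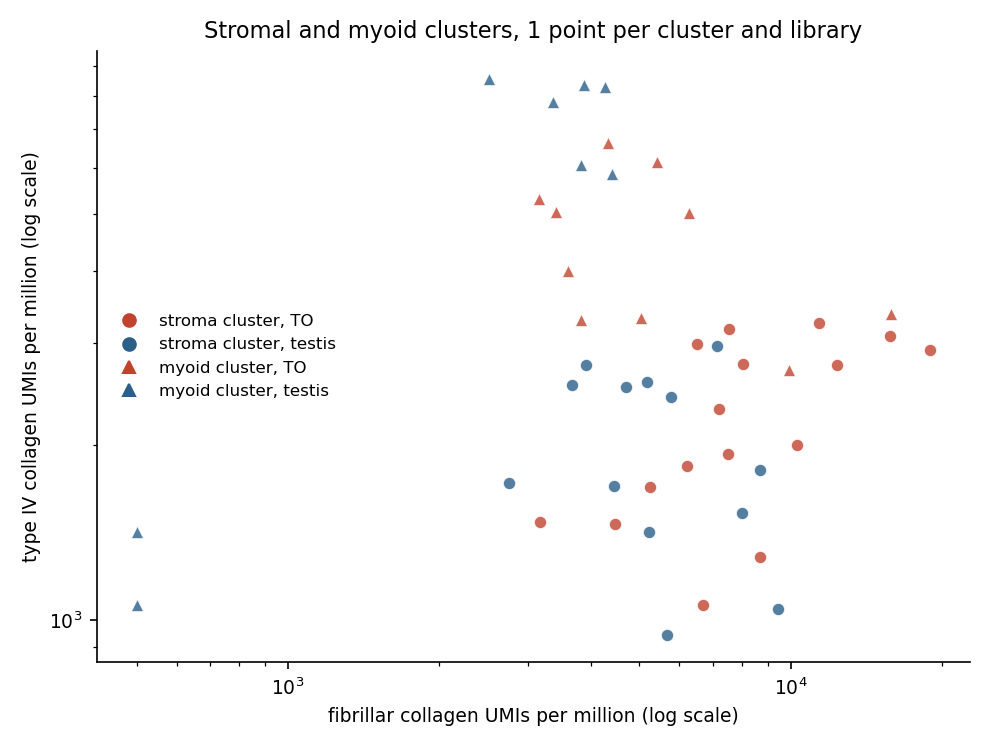
Fibrillar against type IV collagen CPM (both axes on log scales) for each stromal and myoid cluster, with 1 point per cluster and library of at least 10 cells. Circles are stromal and triangles myoid clusters, red TO and blue testis libraries. Most myoid points lie higher on the type IV axis than the stromal points, and the testis triangles of the cluster led by Mustn1 and Rergl stand apart at 500 fibrillar CPM and 1417 and 1061 type IV CPM.

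A myoid cluster led by Mustn1 and Rergl, genes known from vascular smooth muscle, held different values in the 2 groups. Its fibrillar genes gave 3826 and 5033 CPM in TOs and 500 and 500 CPM in testes, and its Col4a4 level was 1424 and 1444 CPM in TOs and 42.4 and 0 CPM in testes. It held 305 and 212 TO cells and 109 and 65 testis cells. These were 13.7% and 14.6% of the TO myoid cells and 18.5% and 18.4% of the testis myoid cells. They were part of the myoid sums given above, those of Col8a1 and Col18a1 included. The levels of these 2 genes within the cluster are not given here. Without the cluster, 7 collagen genes were called in myoid cells in place of 8, and 6 of the 8 remained.

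Genes that make, cross-link or receive collagen were taken from lists of textbook members. Of 34 synthesis and cross-linking genes, 3 of 29 tested were called higher in TO stroma, 6 of 28 in myoid cells, 4 of 29 in Leydig cells and 7 of 22 in Sertoli cells, and edgeR called none lower in any of the 4 types. Lower at an unadjusted p below 0.05 were 2, 2, 1 and 1 of them in stroma, myoid, Sertoli and Leydig cells, and DESeq2 called 0, 1, 1 and 0 lower. Of all genes, 1.98%, 4.38%, 8.76% and 2.2% were called higher and 16.3%, 19.4%, 21% and 12.3% lower in these types. The Sertoli and Leydig counts stand beside the same limits as the collagen counts. In stroma Crtap, part of the prolyl 3-hydroxylase complex, stood at 311 and 337 CPM against 157 and 149 CPM (log2 fold change 1.18 ± 0.22 SE, edgeR adjusted p = 0.00811). Tmem38b, an ion channel of the endoplasmic reticulum needed for collagen modification, was called as well (1.13 ± 0.21, edgeR adjusted p = 0.00785), with a background of 100% in every library. In myoid cells Plod2, which hydroxylates lysines for cross-links, stood at 114 and 138 CPM against 56.3 and 61.8 CPM (1.09 ± 0.23, edgeR adjusted p = 0.00509). Pcolce, an enhancer of procollagen C-proteinase, stood at 220 and 220 CPM against 63.1 and 65.0 CPM (1.77 ± 0.22, edgeR adjusted p = 0.000225), and Crtap at 221 and 242 CPM against 73.6 and 74.8 CPM (1.64 ± 0.22, edgeR adjusted p = 0.000409). In Sertoli cells Plod2 had 294 and 301 CPM against 103 and 103 CPM (1.60 ± 0.16, edgeR adjusted p = 0.000336), and P3h4, a partner of the lysyl hydroxylases, 79.4 and 69.4 CPM against 37.6 and 21.1 CPM (1.37 ± 0.25, edgeR adjusted p = 0.00447). Sparc, a collagen-binding matrix protein, reached 6058 and 6368 CPM in TO Sertoli cells against 1745 and 1789 CPM (1.89 ± 0.20, edgeR adjusted p = 0.000512). In Leydig cells Loxl2, a lysyl oxidase that cross-links type IV collagen, had 63.1 and 53.5 CPM against 25.1 and 15.5 CPM (1.45 ± 0.28, edgeR adjusted p = 0.00884).

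Collagen receptors were called in Sertoli and Leydig cells and collagen-binding proteoglycans in all 4 types. Over all genes, 1.98%, 4.38%, 8.76% and 2.2% were called higher in stroma, myoid, Sertoli and Leydig cells. The shares called lower were 16.3%, 19.4%, 21% and 12.3%. With 9 genes a list, the counts were not tested against these shares. Of 9 receptors, 0 of 7 tested were called in stroma and 0 of 8 in myoid cells by edgeR, and DESeq2 called 0 in both. At an unadjusted p below 0.05, 3 were higher and 1 lower in stroma and 2 higher and 1 lower in myoid cells. In Leydig cells Itga2, a subunit of a collagen-binding integrin, was called lower, with a background of at least 96.5% in every library. Ddr1, a receptor kinase for collagen, was called in Sertoli cells, at 369 and 357 CPM against 132 and 125 CPM (log2 fold change 1.57 ± 0.15 SE, edgeR adjusted p = 0.000344). Of 9 proteoglycans, 2 of 8 tested were lower in TO stroma, among them Prelp, which anchors basement membrane to fibrils, at 11.6 and 5.91 CPM against 41.5 and 89.5 CPM (-2.82 ± 0.44, edgeR adjusted p = 0.00368). In myoid cells 3 were higher and 2 lower of 7 tested. Dcn, a regulator of fibril assembly, reached 1955 and 1918 CPM in TO myoid cells against 475 and 497 CPM (1.98 ± 0.28, edgeR adjusted p = 0.000496), and Bgn, its close relative, 584 and 789 CPM against 306 and 193 CPM (1.45 ± 0.31, edgeR adjusted p = 0.00531). Aspn, a relative that binds the same fibrils, was lower, at 2.29 and 2.77 CPM against 68.0 and 111 CPM (-5.14 ± 0.35, edgeR adjusted p = 9.03e-06). TO myoid cells also carried more stroma marker UMIs, as given above, and Dcn was among the leading genes of a stromal cluster. The part of these in the myoid levels of Dcn, Bgn and Pcolce was not tested. In Sertoli cells Dcn was called (4.20 ± 0.43, edgeR adjusted p = 0.000412) with a background of 67.1% to 100%, and so was Bgn (5.07 ± 0.79, edgeR adjusted p = 0.0023), with a background of 100% wherever it was detected. In Leydig cells Aspn was the proteoglycan called, and it was higher in TOs, at 14.0 and 8.87 CPM against 0.559 and 0.584 CPM (4.22 ± 0.60, edgeR adjusted p = 0.00232), with a background of 41.2% to 100%. Bgn in Sertoli cells and Aspn in Leydig cells lie below 50 CPM and were named after their values were seen.

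Whether a collagen gene moved differently in another type than in stroma was tested as an interaction, with the library as a block. In myoid cells 4 genes were more positive and 5 more negative than in stroma, where 1.63% and 2.6% of all genes were. In Sertoli cells 2 were more positive and 3 more negative (1.42% and 2.44% of all genes), and in Leydig cells 0 were more positive and 2 more negative (1.29% and 0.717%), with 9 more positive at an unadjusted p below 0.05. In Leydig cells the 2 were Col26a1 and Col18a1, and the count became 4, 4, 1 and 0 without TO replicate 1, TO replicate 2, testis replicate 1 and testis replicate 2. For Sertoli cells the count of 5 became 8 without TO replicate 2, 1 without testis replicate 1 and 3 without testis replicate 2.

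Outside the 4 types, the TO cells of 2 small clusters held the markers that named them at far lower summed levels than the testis cells. The cluster named for pericytes in the testes gave 11504 and 14696 CPM of fibrillar genes in TOs and 1044 and 783 CPM in testes, but its 5 pericyte markers summed to 62.1 and 197 CPM in TOs against 3639 and 4959 CPM, so that the TO and testis cells were not compared. The endothelial cluster gave 521 and 668 CPM of type IV genes in TOs and 1206 and 816 CPM in testes, with 6 endothelial markers at 266 and 135 CPM in TOs against 2506 and 1748 CPM. Macrophages held 275 and 272 collagen CPM in TOs and 159 and 107 CPM in testes, and most of their fibrillar value lay within the germ cell level.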

How the data were processed

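Per the study's methods and the submitters' processing notes, the authors made 10x Genomics 3′ libraries and ran Cell Ranger 7.1.0 against mm10. They deposited the UMI counts of each barcode without normalization or removal of doublets. Matrices held 4 libraries, 2 a group, and 0 columns of other samples. The collagen genes and all lists were chosen with earlier results of these data known.

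In scanpy 1.11.5, barcodes with the highest Scrublet scores (0.8% per 1000 barcodes) were removed. Kept cells had 1000 to 5000 detected genes, a total of 20000 UMIs or fewer, and no more than 10% of these from mitochondrial genes. Cells were clustered on 2000 variable genes without collagen genes, with 30 components joined across libraries by Harmony and Leiden at resolution 1, and clusters were named from at least 3 markers. Raw counts were summed per library and type, with 10 cells a library as the minimum, and tested with edgeR 4.0.16 (TMM, filterByExpr, quasi-likelihood F test, Benjamini-Hochberg adjustment) in R 4.3.3. A call required an adjusted p below 0.01 with a log2 fold change beyond 1 in either direction. DESeq2 1.42.0 was an alternative. Other values were compared with exact two-sided permutation tests over libraries. Col1a1, Col1a2, Col3a1, Col4a1 and Col4a2 were named in every type, and beside them called genes with a mean of at least 50 CPM in either group, up to 8 a type and direction for collagen genes and up to 4 a list for the others.

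The tests were checked on simulated counts with 200 changed genes. The dispersion was fixed at 0.03 for every gene and was not taken from these libraries. The recovery therefore does not carry over to genes that varied more between libraries. At a 4-fold change edgeR recovered 81.0% in stroma (15487 genes), 81.5% in myoid cells (15370 genes), 86.5% in Sertoli cells (14513 genes), 89.5% in Leydig cells (15749 genes) and 39.0% in the Mgp and Cxcl14 cluster (11499 genes). Promoter sequences were those of RefSeq for GRCm38.p6, and gene positions were taken from a GRCm38 annotation. Alternatives covered normalization, filters, free RNA, doublets, clustering, left-out clusters and left-out libraries.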

Additional observations from a re-analysis of the deposited data

Results flagged for a closer look

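The TO against testis difference of 16 collagen genes was unequal between a cell type and stroma in the edgeR interaction test with the library as a block. Values are the difference in the type minus that in stroma, on the log2 scale, with SE and the adjusted p over all genes.

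In myoid cells 9 genes differed. More positive than in stroma were Col15a1 (3.60 ± 0.28, edgeR adjusted p = 3.96e-11), Col6a6 (5.55 ± 0.66, 1.93e-07), Col13a1 (2.82 ± 0.40, 4.04e-06) and Col5a1 (1.68 ± 0.23, 1.95e-06). More negative were Col8a1 (-6.31 ± 0.96, 1.42e-05), Col11a1 (-3.89 ± 0.79, 0.000858), Col8a2 (-3.24 ± 0.68, 0.00128), Col18a1 (-2.74 ± 0.30, 5.64e-08) and Col4a6 (-1.0 ± 0.22, 0.00163). Col6a6 stood at or below 3.09 CPM in every myoid library.

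In Sertoli cells 5 genes differed. More positive than in stroma were Col4a5 (4.45 ± 0.52, edgeR adjusted p = 0.00108) and Col6a6 (2.43 ± 0.42, 0.00683). More negative were Col25a1 (-4.59 ± 0.74, 0.00486), Col6a4 (-3.98 ± 0.55, 0.00233) and Col27a1 (-3.69 ± 0.63, 0.00649). Col25a1 did not pass the count filter in Sertoli cells alone. Col6a4 stood at 46.7 and 14.5 CPM in testis germ cells and at 1.26 and 0.488 CPM in TO germ cells. In Leydig cells Col26a1 (-7.16 ± 0.64, edgeR adjusted p = 0.0019) and Col18a1 (-2.89 ± 0.42, 0.00908) were more negative. The causes were not tested.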

How the results depend on the processing

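Depth limited low collagen genes most in the Mgp and Cxcl14 cluster, whose testis sums held 147177 and 88726 UMIs. The counts of called collagen genes in stroma (7) and myoid cells (8) stayed within 1.5 times under DESeq2 (9 and 9), RLE normalization, thinned sums, the clustering alternatives run and left-out libraries (6 to 7 and 7 to 12). Counts in Sertoli cells (10) and Leydig cells (7) did not. Without Harmony the myoid genes were not tested, since a library then held under 10 cells of the type.

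Without a filter on low counts edgeR called 13 in stroma, 16 in Sertoli cells, 6 in the Mgp and Cxcl14 cluster and 0 in Leydig cells, where it called 0 of all genes too (15 collagen genes at an unadjusted p below 0.05, and 8 by DESeq2 with the filter). Subtraction of the whole germ cell profile left 0 in stroma, myoid, Sertoli and Leydig cells (10, 10, 6 and 6 at an unadjusted p below 0.05), where 0 of all genes were called as well, with 27, 26, 12 and 19 collagen genes tested. The profile of a germ cell held more UMIs than a stromal cell, so this setting cannot show how much RNA came from other cells. Subtraction from the collagen genes alone, chosen after seeing the data, left 5 in Sertoli cells and gave 1 in the Mgp and Cxcl14 cluster.

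In Sertoli cells the count was 5 without genes of other cells, 4 with doublets kept and 0 without the doubted clusters, where edgeR called 0 of all genes. DESeq2 gave 4 in that setting, and this last pair was chosen after seeing the data. The Sertoli count also fell without either TO library, as did that over all genes. In Leydig cells the count was 4 with RLE normalization, 2 without genes of other cells, 4 without Harmony and 3 with each cell named by its own marker score. It also fell with any library left out, as did that over all genes. Genes differing from stroma numbered 1 to 8 in Sertoli and 0 to 4 in Leydig cells with a library left out (17 at an unadjusted p below 0.05 where edgeR called 0). The causes were not tested.

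The replicate number as a block (replicate block) gave 14 calls in myoid cells, 4 in Leydig cells and 3 in the Mgp and Cxcl14 cluster, and 9 and 13 in stroma and Sertoli cells. Correlations of same-numbered deviations were 0.17 in stroma, 0.159 in myoid cells, 0.0309 for Leydig cells, 0.0714 for Sertoli cells and 0.0496 for the Mgp and Cxcl14 cluster. With 2 pairs these values cannot settle whether same-numbered samples share more than a number.

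On the log2 scale, the TO minus testis difference in summed collagen was -0.012 in stroma by each cell's own marker score (0.31 as reported), 0.50 in Sertoli cells with doublets kept and 0.38 after background subtraction (0.19 as reported). With a library left out it ranged from 0.031 to 0.37 in Sertoli cells, from -0.18 to 0.25 in myoid cells (0.05 as reported) and from -1.0 to 0.74 in Leydig cells (-0.38 as reported). The fibrillar to type IV difference was -0.45 in stroma and 0.35 in myoid cells by each cell's own marker score, and -0.52 without the doubted clusters and -2.67 after background subtraction in Sertoli cells. In myoid cells it stayed above 0 in every setting run, from 0.35 to 0.79.

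For single named genes, 599 combinations of gene and setting left the call as reported, 21 lost it and 19 gained it. A reversal was counted only where the gene was called as reported or in the setting, and none was found. Genes called in neither did change sign. With a library left out, Col3a1 ranged from -1.72 to 1.09 in Leydig cells and Col1a1 from -0.37 to 0.67 in myoid cells. For the other results 177 left the value as reported and 42 moved it.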
